A study of Mus musculus with 24 samples.

Results

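The genes described here are the potassium channel genes of mouse nucleus accumbens, that is the protein-coding genes whose symbol begins with Kcn. Of 93 such genes in a table of 37991 genes, 80 were kept because they had at least 10 raw counts in at least 3 of the 24 libraries. Another 9 had too few counts, and 4 (Kcnj13, Kcne2, Kcnj8 and Kcnk9) were set aside by name. Just inside the count limit stood Kcnv2, with 97 counts over all libraries and 10 or more in 3 of them, and Kcnj15, with 162 counts. Just outside it stood Kcne3, with 78 counts and no library at 10. The members fall into subfamilies of unequal size: 11 Kcnj, 10 Kcnk, 8 Kcnh, 6 Kcna, 5 Kcnq, 4 each of Kcnc, Kcng, Kcnip, Kcnm and Kcnn, 3 each of Kcnab, Kcnd and Kcns, 2 each of Kcnb, Kcne, Kcnt and Kcnv, and Kcnf1, Kcnrg and Kcnu1 alone.

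Potassium channels let potassium leave a neuron, or enter it at negative voltages, and so set its resting voltage, the shape of its action potentials and the pauses between them. Medium spiny neurons, the projection neurons of the striatum, are known for a very negative resting state held by inward rectifiers of the Kcnj subfamily, for a fast inactivating (A-type) current carried by Kcnd pores with Kcnip subunits, and for a slow current of Kcna channels that delays their first spike. The Kcnq channels carry the muscarine-sensitive M current, the Kcnc channels allow fast firing, the Kcnm and Kcnn channels open with intracellular calcium, and the Kcnk channels leak at rest.

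The 24 libraries form 2 experiments and 8 groups of 3 libraries, and each library was made from the pooled mRNA of 4 mice of the C57BL/6J strain. In the wild-type experiment the groups were stressed females, control females, stressed males and control males. In the floxed experiment every mouse was stressed and had the genotype Dnmt3a2lox/2lox, with loxP sites around part of the gene for the DNA methyltransferase Dnmt3a. Those groups were females with AAV-CRE, females with AAV-GFP, males with AAV-CRE and males with AAV-GFP, the virus bringing either Cre recombinase, which cuts out the flanked part, or a fluorescent protein. The series title names subchronic variable stress. The labels state neither the age of the mice, nor the promoter of the virus, nor the number of stress days, and the protocol names dorsal striatum beside the nucleus accumbens for the punches. No floxed mice without stress were analysed here, so the floxed groups show Cre against GFP in stressed mice. In tissue of mixed cells, fewer cells of a type and less RNA per cell cannot be told apart.

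Library totals were 7116123 to 12145551 counts in the wild-type and 28132563 to 59829070 counts in the floxed experiment. The 80 genes took 0.47% to 0.529% of the counts of a wild-type library and 0.434% to 0.494% of a floxed library. All 12 listed markers of medium spiny neurons were present in each group, and their summed level was 5424 to 8825 CPM (counts scaled to a common library total) in 23 libraries. The second Cre male library stood apart, with 3032 CPM of these markers. It also held 3341 CPM of a list of 14 choroid plexus and ependymal markers, against 174.6 to 380.1 CPM in the other floxed libraries. That list varied in wild-type mice too, with 190.7, 1881 and 4778 CPM in control males. Markers of cortical and other excitatory neurons, 15 genes, summed to 834, 861.5 and 427.1 CPM in Cre males, against 154.5, 175.4 and 184.4 CPM in GFP males, and to 167.9 to 402.3 CPM in the other 6 groups. Dnmt3a itself, the targeted gene, was counted over its whole length, kept exons included. It stood at 142.9, 137.3 and 138.3 CPM in Cre males against 181.6, 164.4 and 171 CPM in GFP males, a log2 fold change of -0.30 ± 0.06 (SE) with an adjusted p of 0.0149. Dnmt3a stood at 155.2, 150.4 and 139.8 CPM in Cre females against 162.1, 168.9 and 154.5 CPM in GFP females, with a log2 fold change of -0.12 ± 0.06 (SE) and an adjusted p of 0.829.

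Levels of different genes were compared as CPM per kilobase of exon, averaged over the 12 libraries of an experiment. The length joins all annotated exons of a gene, in a later annotation than that of the counts, so long genes have lower values per kb. In both experiments the same 3 genes led: Kcnip2, an intracellular calcium-binding subunit of Kcnd channels, Kcnj4, a strong inward rectifier, and Kcna1, a low-threshold delayed rectifier. Kcnip2 averaged 88.1 CPM per kb in floxed and 74.0 in wild-type libraries. Kcnj4 averaged 64.2 CPM per kb in floxed and 83.5 in wild-type libraries, and Kcna1 52.5 and 65.1. Kcnip2 and Kcnj4 changed places between the experiments. Within wild-type mice their libraries overlapped, Kcnip2 at 60.9 to 83.5 and Kcnj4 at 56.3 to 108.1 CPM per kb, so that order is not resolved there. In floxed GFP males they did not, with Kcnip2 at 90.7 to 97.5 and Kcnj4 at 56.5 to 63.2 CPM per kb.

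**Figure D1:**
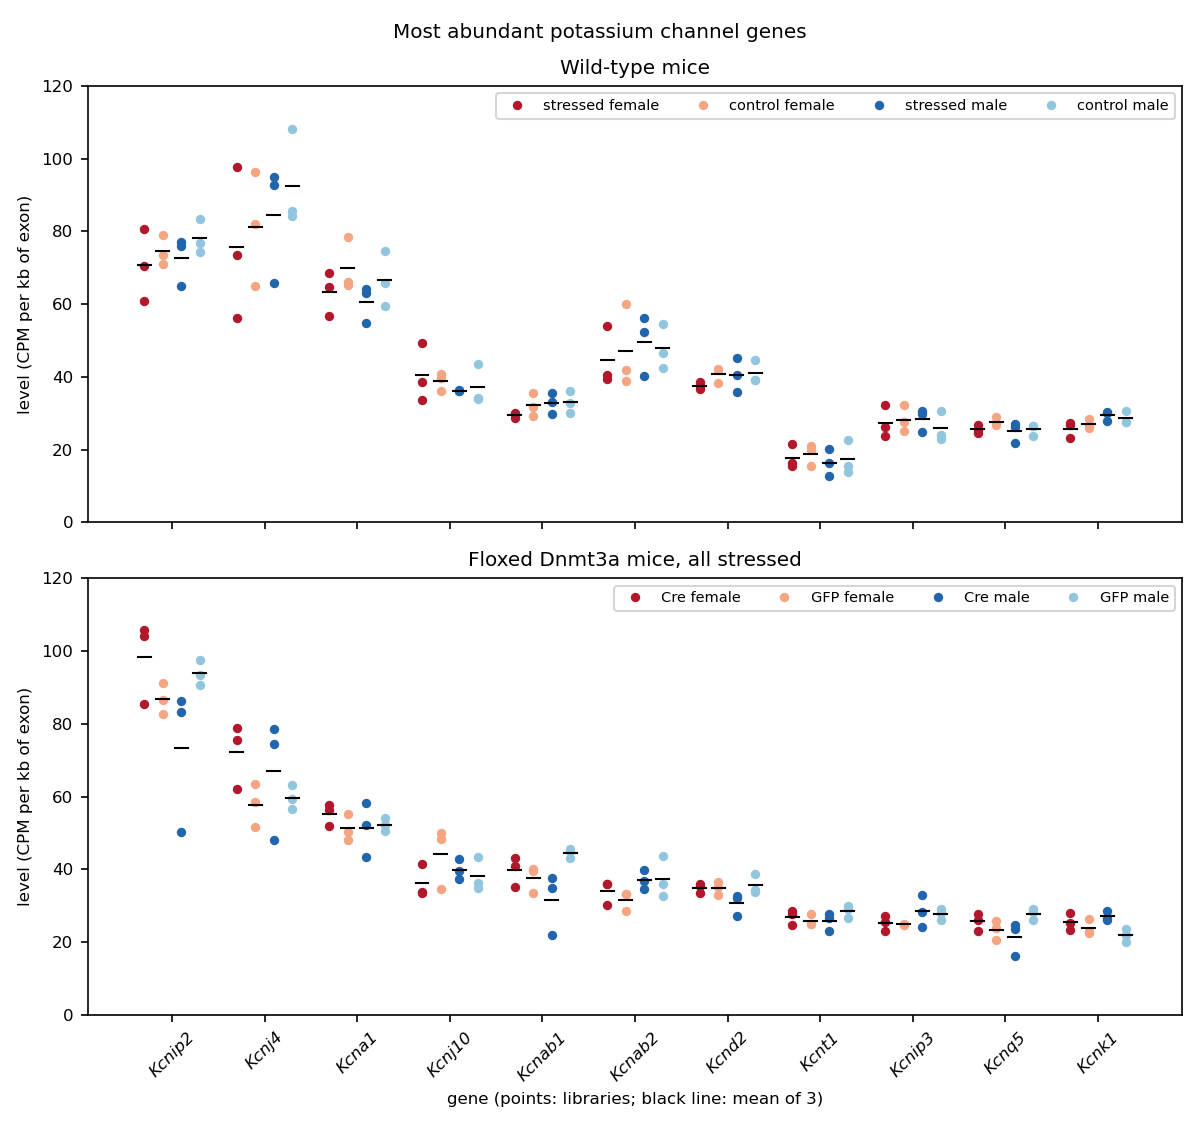
Level of 11 of the most abundant potassium channel genes (ranked in floxed mice) in CPM per kb of exon, with 1 point per library, 3 libraries per group and a black line at the mean. Kcnip2, Kcnj4 and Kcna1 lead in both experiments, and in the lower panel a Cre male library with 50.2 CPM per kb of Kcnip2 lies below the other floxed libraries.

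After these came a second tier. It held Kcnj10 (39.6 in floxed, 38.2 in wild-type mice), the inward rectifier by which astrocytes clear potassium. Kcnab1 (38.4 and 31.9) and Kcnab2 (35.0 and 47.3) are cytoplasmic beta subunits of Kcna channels. Kcnd2 (34.0 and 40.0) is the pore of the A-type current that Kcnip2 joins. Kcnt1 (26.8 and 17.6) is a sodium-activated channel, Kcnip3 (26.5 and 27.5) a relative of Kcnip2, Kcnq5 (24.6 and 26.0) a subunit of the M current and Kcnk1 (24.6 and 27.7) a leak channel. The 12 leading genes held 60.2% of the summed level in floxed mice and 60.3% in wild-type mice, and 11 of the 12 were the same in both experiments. Kcnt1 was 9th in floxed and 17th in wild-type mice. The experiments differ in genotype, virus and depth at once, so the source of such differences cannot be told apart.

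The subfamilies differed widely in level and much less between groups. The 11 Kcnj genes summed to 145.3 ± 12.4 CPM per kb in Cre males and 128.7 ± 6.42 in GFP males (SD, n = 3 libraries each), the 4 Kcnip genes to 123.5 ± 22.0 and 143.9 ± 4.33, and the 6 Kcna genes to 98.9 ± 10.7 and 101.6 ± 2.92. In males the 3 Cre libraries lay below the GFP libraries for Kcnip, at 98.1 to 137.3 against 139.0 to 147.4 CPM per kb, and the libraries overlapped for Kcnj and Kcna. In females they overlapped for all 3 of these subfamilies. The Kcnc genes stood at 34.6 ± 9.41 CPM per kb in Cre males and 22.6 ± 1.09 in GFP males, where the lowest Cre library, 26.0, lay above the highest GFP library, 23.7. The calcium-gated subfamilies were low per kb, with Kcnm at 6.6 and Kcnn at 7.6 CPM per kb in Cre males, against 5.5 and 6.5 in GFP males. For Kcnm this measure is lowered by the 16976 bases of exon of Kcnma1. Without division by length Kcnma1 stood at 94.8, 83.7 and 72.7 CPM in Cre males and 70.6, 77.0 and 69.9 CPM in GFP males. Over all 80 genes the sum was 813 ± 71.0 CPM per kb in Cre males against 822 ± 3.6 in GFP males, and 849.5 ± 46.1 in stressed females against 895.4 ± 50.2 in control females.

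**Figure D2:**
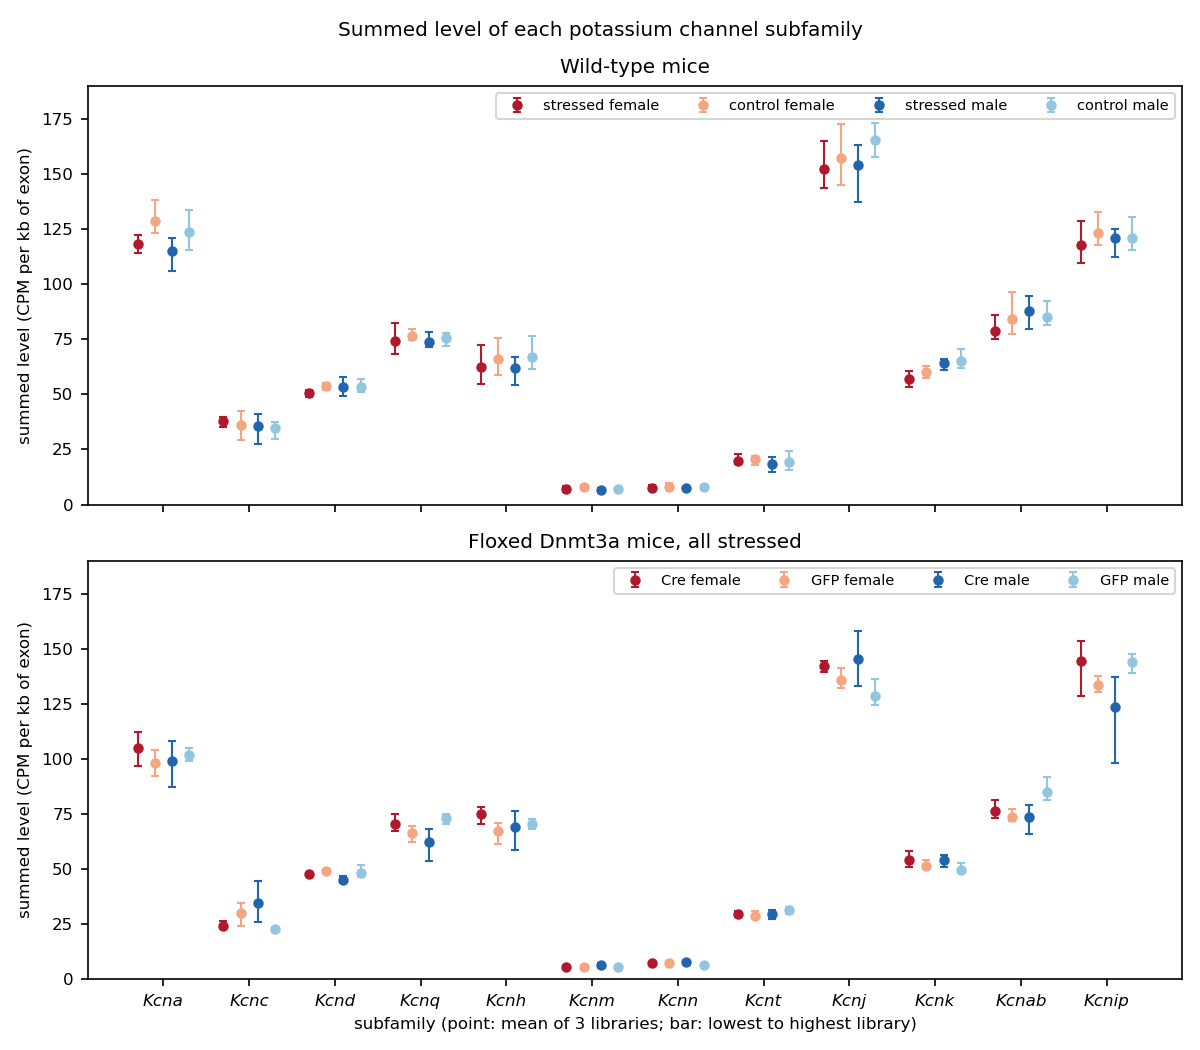
Summed level of 12 potassium channel subfamilies in CPM per kb of exon; points are means of 3 libraries and bars run from the lowest to the highest library. The Kcnj, Kcnip and Kcna sums are the highest in each group, and the Cre male libraries spread most for Kcnip (98.1 to 137.3 CPM per kb).

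Within a subfamily 1 or 2 genes held most of the level, here given for floxed mice. Among inward rectifiers Kcnj4 stood at 64.2 CPM per kb and Kcnj2, its close relative, at 11.7. The G-protein-gated rectifiers, which open after dopamine, opioid or GABA-B receptors signal, were lower: Kcnj9 stood at 7.48, Kcnj3 at 4.89, Kcnj5 at 0.689 and Kcnj6 at 0.553 CPM per kb. Among Kcna genes, Kcna1 at 52.5 stood above Kcna4 at 16.5 and Kcna2 at 3.83, whose long exons lower its value per kb. Kcnd2 at 34.0 stood above Kcnd3 at 9.03 and Kcnd1 at 4.36. The fast delayed rectifiers were led by Kcnc1 at 12.2, with Kcnc2 at 3.79 and Kcnc4 at 3.95. The Kcnh genes were led by Kcnh3 at 20.6, with Kcnh1 at 18.9, Kcnh2 at 13.0, Kcnh4 at 10.8 and Kcnh8, the lowest, at 0.116. Kcnq5 at 24.6 stood above Kcnq3 at 3.05, whose 14708 bases of exon also lower its value, and Kcnq1 at 0.118. Leak channels were led by Kcnk1 at 24.6 and Kcnk2 at 19.4, and Kcnk5 was lowest at 0.157. Calcium-gated channels were led by Kcnma1 at 4.34, a value lowered by its 16976 bases of exon. Its beta subunits Kcnmb4 and Kcnmb2 stood at 0.746 and 0.288. Kcnn2 stood at 2.65, Kcnn3 at 2.2 and Kcnn4 at 0.153. Among silent subunits, which form no channel alone and modify Kcnb channels, Kcnf1 stood at 13.8, Kcnv1 at 12.8, Kcng1 at 7.87 and Kcns2 at 6.93 CPM per kb.

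Stress in wild-type females gave no call among potassium channel genes. Of the 71 members tested, 0 passed an adjusted p of 0.05 in edgeR's quasi-likelihood test, which called 0% of all 15249 genes, and DESeq2 and limma-voom also called 0 members. Only Kcnj5 had an unadjusted p below 0.05, where 1.68% of all genes did. The member fold changes were small, with a median log2 of -0.09, against -0.006 over all genes, and 20 of the 71 were positive, against 48.7% of all genes.

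Kcnj5, a subunit of the G-protein-gated rectifiers, stood at 4.88, 3.54 and 4.45 CPM in stressed females against 1.52, 3.19 and 3.35 CPM in control females. Its libraries did not overlap, with a log2 fold change of 0.67 ± 0.28 (SE) and an adjusted p near 1. Kcns3, a silent subunit found in fast-spiking cells, stood at 3.52, 1.88 and 2.23 CPM in stressed females against 1.32, 1.75 and 1.62 CPM in control females, also without overlap. In all, 3 members had every stressed female library higher (Kcnj5, Kcns3 and Kcnn2), where 2.72% of all genes did, and 3 had every one lower (Kcnma1, Kcnq3 and Kcnq5), where 2.58% did. That is 6 of 71 members without overlap, where 5.3% of all genes had none. Kcnma1, the pore of the large-conductance calcium-gated channel, stood at 79.5, 80.0 and 91.1 CPM in stressed females against 94.0, 102 and 92.5 CPM in control females. The remaining members of smallest p, none past the threshold, were Kcnc2 (log2 0.44 ± 0.22), Kcna2 (-0.22 ± 0.13) and Kcng1 (-0.53 ± 0.32, SE).

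By subfamily, all 7 Kcnh, all 4 Kcnip and all 3 Kcnab genes tested had negative fold changes in stressed females, none past the threshold. Beside them, 11 of 12 medium spiny neuron markers were negative (median log2 -0.16) and 10 of 13 cortical markers tested were (median -1.01), none called. The cortical sum was 251.5 to 280.5 CPM in stressed females and 254 to 402.3 CPM in control females. A fit added after the data were seen took the mean log2 CPM of the cortical markers as a covariate. In it 26 of 71 members were positive with a median log2 of -0.11, 0 were called and 0% of all genes were.

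In stressed males no member passed either. Of 71 members 0 were called by edgeR, DESeq2 or limma-voom, where edgeR called 0.00656% of all genes, and 3 had an unadjusted p below 0.05, where 2.81% of all genes did. The median log2 fold change was -0.03, against -0.001 over all genes, and 30 of 71 were positive, against 49.7% of all genes. Libraries did not overlap for 7 members, where 7.91% of all genes had no overlap. They were higher for Kcnc2, Kcnmb2 and Kcnip4 (3.67% of all genes) and lower for 4 members, among them Kcnh1, Kcnk13 and Kcne1l (4.24% of all genes).

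Kcnc2, a fast delayed rectifier of fast-spiking interneurons, stood at 49.1, 31.9 and 36.8 CPM in stressed males against 31.1, 26.4 and 25.3 CPM in control males, a log2 fold change of 0.51 ± 0.22 (SE). Kcnh1, a voltage-gated channel of the ether-a-go-go kind, stood at 135, 132 and 134 CPM in stressed males against 173, 152 and 151 CPM in control males, with -0.25 ± 0.11 (SE). Kcnk13, a leak channel that microglia use, stood at 7.06, 6.73 and 7.13 CPM in stressed males against 9.60, 8.90 and 8.09 CPM in control males, with -0.34 ± 0.15 (SE). Kcnmb2 had 0.79 ± 0.40 (SE) at levels near 1 CPM. None of these 4 passed, each with an adjusted p near 1. Choroid plexus markers were uneven in these males, at 355.9, 271.8 and 408.1 CPM in stressed males against 190.7, 1881 and 4778 CPM in control males. Of 12 medium spiny neuron markers 11 were negative here too, with a median log2 of -0.16 and 0 called. The part of either list in these values was not tested.

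Averaged over the sexes, stress again gave 0 called members of 71 by edgeR, DESeq2 or limma-voom, where edgeR called 0.0131% of all genes, and 6 members had an unadjusted p below 0.05, where 3.21% of all genes did. Fold changes were positive for 23 of 71 members, against 48.6% of all genes. The 6 included Kcnc2 (log2 0.48 ± 0.16), Kcna2 (-0.23 ± 0.09), Kcnma1 (-0.21 ± 0.09) and Kcnj5 (0.42 ± 0.19, SE). Kcnc2, Kcnj5 and Kcns3 were positive in both sexes, and Kcna2 and Kcnma1 negative in both. No member had non-overlapping libraries in both sexes. All 7 Kcnk genes tested had negative averaged fold changes, and so did 5 of 6 Kcna genes. The stress effects of females and males did not differ past the threshold for any member. By edgeR, DESeq2 or limma-voom 0 of 71 were called in that test, where edgeR called 0% of all genes, and 1 member had an unadjusted p below 0.05, where 1.19% of all genes did. The difference was positive for 34 of 71 members, against 49.5% of all genes. The 1 member was Kcnk13, with 0.48 ± 0.22 log2 (SE, female minus male stress effect). Kcnh1 (0.23 ± 0.15), Kcnj12 (0.41 ± 0.29), Kcnj3 (-0.45 ± 0.36) and Kcnj5 (0.49 ± 0.39, SE) followed.

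No potassium channel gene passed the test of a difference between females and males. Of 71 members 0 differed by sex in wild-type mice by edgeR, DESeq2 or limma-voom, where edgeR called 0.0393% of all genes (0.0131% higher and 0.0262% lower in females), and 8 had an unadjusted p below 0.05, where 5.03% of all genes did. Levels were higher in females for 43 of 71 members, against 49.5% of all genes. In floxed mice 0 of 79 differed by any of these tools, where edgeR called 0.0682% of all genes (0.0341% in each direction), and 6 had an unadjusted p below 0.05, where 6.68% of all genes did. Levels were higher in females for 37 of 79 members, against 49.3% of all genes. Kcnj6, a G-protein-gated rectifier, had the smallest p in wild-type mice. It stood at 4.74, 4.90 and 7.79 CPM in stressed females against 2.55, 3.26 and 2.92 CPM in stressed males, and at 3.95, 7.61 and 4.36 CPM in control females against 2.82, 4.02 and 3.83 CPM in control males. Its log2 difference was 0.78 ± 0.21 (SE, female minus male) with an adjusted p of 0.969, and in floxed mice it was -0.49 ± 0.39. Kcna3 (0.30 ± 0.13), Kcnk2 (-0.19 ± 0.08), Kcnj15 (0.80 ± 0.36) and Kcnma1 (0.19 ± 0.09, SE) followed in wild-type mice. In floxed mice these were Kcnh7 (-0.42 ± 0.14), Kcnn3 (0.18 ± 0.06), Kcnj9 (-0.31 ± 0.11), Kcnip3 (-0.17 ± 0.07) and Kcnab2 (-0.18 ± 0.08, SE). Kcnh7 and Kcnj9 are among the genes called in Cre against GFP males, described below. The 2 members on the X chromosome had small differences. Kcnd1 had a log2 difference of 0.07 ± 0.17 in wild-type and 0.03 ± 0.07 in floxed mice, and Kcne1l -0.14 ± 0.18 and 0.02 ± 0.17 (SE).

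Cre in floxed females gave no call. Of the 79 members tested 0 passed by edgeR, DESeq2 or limma-voom, where edgeR called 0% of all 17597 genes, and 5 had an unadjusted p below 0.05, where 5.96% of all genes did. The median log2 fold change of the members was 0.04, against 0.00 over all genes, and 45 of 79 were positive, against 50.1% of all genes. Kcns3 stood at 0.733, 0.641 and 0.812 CPM in Cre females against 1.86, 1.48 and 1.21 CPM in GFP females, a log2 fold change of -1.04 ± 0.40 (SE) with an adjusted p of 0.785. Kcnc2 stood at 13.8, 21.1 and 14.8 CPM in Cre females against 38.7, 20.5 and 35.7 CPM in GFP females, with -0.94 ± 0.37 (SE) and an adjusted p of 0.796. The libraries of Kcns3 did not overlap, and those of Kcnc2 did, through the second library of each group. A list of septal, thalamic, pallidal and hypothalamic markers summed to 124.9, 235.8 and 98.0 CPM in Cre females against 192.7, 109.3 and 263.2 CPM in GFP females. Of its 11 genes tested 9 were negative, with a median log2 of -0.51 and 0 called, and its part in the channel values was not tested. Kcnab3 (-0.77 ± 0.30), Kcnj5 (-0.72 ± 0.31) and Kcnh3 (0.27 ± 0.12, SE) followed, none past the threshold. Libraries did not overlap for 8 of 79 members, where 11.5% of all genes had no overlap: 3 were higher (6.5% of all genes) and 5 lower (5.04% of all genes) in Cre. All 4 Kcnc genes had negative fold changes.

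In floxed males 9 of 79 potassium channel genes were called higher in Cre than in GFP mice, and 0 lower. Of all 17597 genes 4.96% were called, 3.68% higher and 1.28% lower. Described here are 8 of the 9 members: Kcnh7, Kcnj9, Kcnf1, Kcnn1, Kcnc4, Kcnk4, Kcnk3 and Kcnk13. The members had a median log2 fold change of 0.15, against 0.005 over all genes, and 48 of 79 were positive, against 50.9% of all genes. An unadjusted p was below 0.05 for 33 members, where 24.8% of all genes had one. Libraries did not overlap for 30 of 79 members, 21 of them higher and 9 lower in Cre, where 29.4% of all genes had no overlap, 14.7% in each direction. None of the 9 is among the 12 most abundant members. The cortical markers rose in the same comparison: 14 of 15 were positive with a median log2 fold change of 3.84, and 12 passed the threshold. Of 9 striatal interneuron markers 6 were positive with a median log2 fold change of 0.44, and 4 passed, all higher. They summed to 383.7, 398.4 and 355 CPM in Cre males against 283.2, 284.4 and 258.2 CPM in GFP males, and their part in the channel values was not tested.

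**Figure D3:**
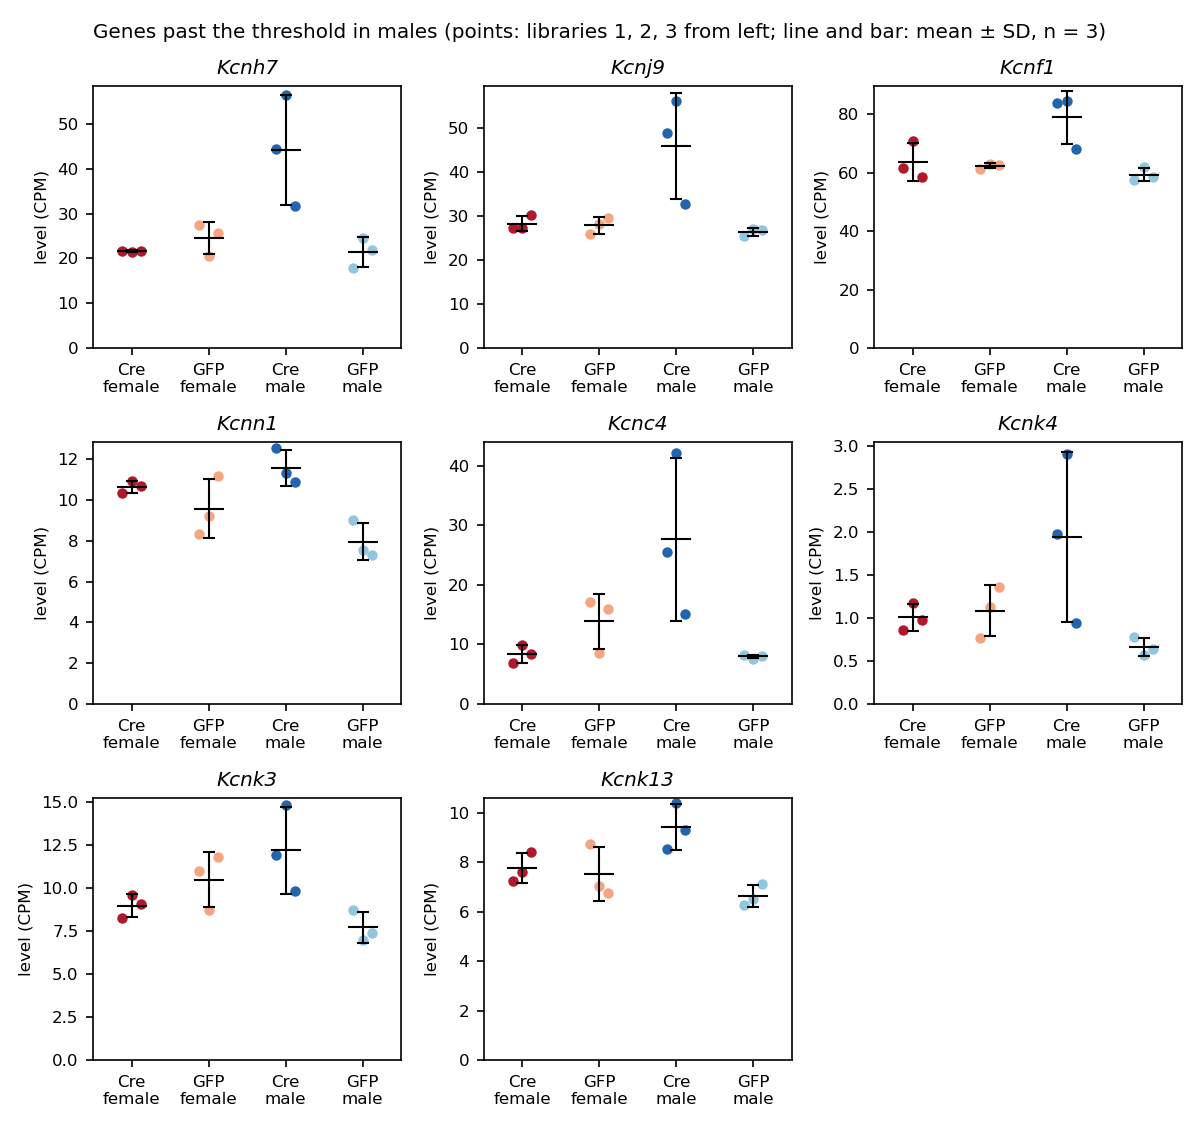
Level in CPM of 8 potassium channel genes called in Cre against GFP males, for Cre females, GFP females, Cre males and GFP males; points are libraries 1, 2 and 3 from left, and the line and bar give the mean ± SD of 3 libraries. The second Cre male library is the highest of its group for 7 of the 8 genes, and the Cre and GFP libraries of females overlap for all 8.

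Among voltage-gated members, Kcnc4, a fast inactivating relative of Kcnc2, stood at 25.6, 42.2 and 15.1 CPM in Cre males against 8.29, 7.64 and 8.00 CPM in GFP males, a log2 fold change of 1.80 ± 0.36 (SE) with an adjusted p of 0.0258. Its Cre libraries spread widely and its GFP libraries lie close together, without overlap. Kcnh7, an ether-a-go-go related channel, stood at 44.4, 56.5 and 31.8 CPM in Cre males against 17.9, 24.6 and 21.8 CPM in GFP males, with 1.05 ± 0.19 (SE) and an adjusted p of 0.0157. Kcnf1, a silent subunit and the most abundant of the 8, stood at 83.9, 84.6 and 68.3 CPM in Cre males against 57.6, 61.8 and 58.5 CPM in GFP males, with 0.41 ± 0.09 (SE) and an adjusted p of 0.0221.

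Among rectifier and calcium-gated members, Kcnj9 stood at 48.8, 56.0 and 32.6 CPM in Cre males against 25.4, 27.1 and 26.7 CPM in GFP males, a log2 fold change of 0.80 ± 0.15 (SE) with an adjusted p of 0.0187. Its partners Kcnj3 (1.14 ± 0.29, adjusted p 0.0514) and Kcnj6 (1.70 ± 0.56, SE, adjusted p 0.103) did not pass in edgeR and did in DESeq2. Kcnn1, a small-conductance calcium-gated channel, stood at 12.6, 11.3 and 10.9 CPM in Cre males against 9.01, 7.57 and 7.32 CPM in GFP males, with 0.54 ± 0.12 (SE) and an adjusted p of 0.0252. Its Cre libraries all lay above its GFP libraries.

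The leak channels gave 3 of the 9 calls, from 10 tested. Kcnk4, a mechanically gated channel at a very low level, stood at 1.98, 2.90 and 0.938 CPM in Cre males against 0.782, 0.572 and 0.637 CPM in GFP males, a log2 fold change of 1.56 ± 0.37 (SE) with an adjusted p of 0.0338. Kcnk3, an acid-sensitive channel, stood at 11.9, 14.8 and 9.85 CPM in Cre males against 8.73, 7.0 and 7.42 CPM in GFP males, with 0.67 ± 0.16 (SE) and an adjusted p of 0.0349. Kcnk13 stood at 8.54, 10.4 and 9.32 CPM in Cre males against 6.25, 6.5 and 7.14 CPM in GFP males, with 0.51 ± 0.12 (SE) and an adjusted p of 0.035. Of the 10 leak channels 8 had positive fold changes. Beside Kcnk13, all 10 microglia markers were positive in the same males, with a median log2 of 0.22 and 0 called, and their part in its value was not tested.

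The count settings of the submitters leave strand unstated, so reads of overlapping genes cannot be told apart for 5 of the 8. Exons on the opposite strand overlap Kcnh7 (by 696 bases, Gca), Kcnk3 (229 bases, Gm9899), Kcnj9 (172 bases, Gm36937) and Kcnn1 (132 bases, A230052G05Rik), and Kcnk4 shares 587 bases with Catsperz on its own strand. Kcnc4, Kcnf1 and Kcnk13 have no such overlap in that annotation.

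The promoters of 4 of the called genes are shown because Dnmt3a adds methyl groups to the C of CG pairs, and the CG pairs, in capitals, differ in number between them. Each runs from 250 bases before to 50 bases after a RefSeq transcription start on build GRCm38.p6 and is read on the minus strand.
Kcnh7 (chr2:63184238-63184537): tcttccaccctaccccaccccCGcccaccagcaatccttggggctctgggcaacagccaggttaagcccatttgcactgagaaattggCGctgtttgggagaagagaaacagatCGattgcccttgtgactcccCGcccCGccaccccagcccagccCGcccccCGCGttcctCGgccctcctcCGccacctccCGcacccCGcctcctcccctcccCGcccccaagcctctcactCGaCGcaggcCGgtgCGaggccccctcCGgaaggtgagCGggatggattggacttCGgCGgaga
Kcnc4 (chr3:107458849-107459148): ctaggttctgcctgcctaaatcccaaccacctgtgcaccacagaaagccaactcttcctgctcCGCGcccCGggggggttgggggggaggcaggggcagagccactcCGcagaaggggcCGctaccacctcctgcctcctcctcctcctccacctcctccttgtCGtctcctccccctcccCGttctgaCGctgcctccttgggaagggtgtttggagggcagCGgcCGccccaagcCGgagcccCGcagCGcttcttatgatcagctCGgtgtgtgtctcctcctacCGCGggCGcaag
Kcnj9 (chr1:172329273-172329572): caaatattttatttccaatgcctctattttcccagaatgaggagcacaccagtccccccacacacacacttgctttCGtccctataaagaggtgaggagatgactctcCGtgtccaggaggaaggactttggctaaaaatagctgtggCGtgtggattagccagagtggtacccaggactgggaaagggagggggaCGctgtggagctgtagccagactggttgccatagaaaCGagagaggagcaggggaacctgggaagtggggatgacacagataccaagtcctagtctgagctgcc
Kcnf1 (chr12:17176839-17177138): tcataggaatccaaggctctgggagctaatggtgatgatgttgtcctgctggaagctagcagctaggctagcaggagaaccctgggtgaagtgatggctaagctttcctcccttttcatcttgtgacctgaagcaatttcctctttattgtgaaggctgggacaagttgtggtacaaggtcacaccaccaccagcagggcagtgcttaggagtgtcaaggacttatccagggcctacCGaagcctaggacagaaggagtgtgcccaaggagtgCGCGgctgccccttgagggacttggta

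The window of Kcnh7 holds 21 CG pairs, that of Kcnc4 17, that of Kcnj9 5 and that of Kcnf1 3. Kcnk13 has 9, Kcnk4 has 5, and the 2 windows of Kcnn1 have 13 and 16. A total of 58 of the 80 members had a promoter in the RefSeq table, 81 windows in all, with a median of 10 CG pairs, against 7 over 32851 mouse promoters, of which 94.6% hold at least 1. Methylation was not measured in these libraries, and the called genes span low and high CG counts.

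The members not called in Cre against GFP males include the most abundant ones. Kcnip2 stood at 289, 175 and 300 CPM in Cre males against 315, 324 and 339 CPM in GFP males, a log2 fold change of -0.36 ± 0.17 (SE) with an adjusted p of 0.214. All 3 Cre libraries were lower, and the second, poor in spiny neuron markers, was lowest. Kcnab1 stood at 300, 189 and 322 CPM in Cre males against 387, 392 and 370 CPM in GFP males, with -0.50 ± 0.17 (SE) and an adjusted p of 0.099 in edgeR, and DESeq2 called it lower. Kcnd2 (-0.21 ± 0.08), Kcnq5 (-0.37 ± 0.14) and Kcna4 (-0.34 ± 0.16, SE) also had every Cre male library below every GFP male library, and none passed. Kcnj4 (0.16 ± 0.16), Kcna1 (-0.03 ± 0.09), Kcnj10 (0.07 ± 0.14), Kcnab2 (-0.01 ± 0.11) and Kcnt1 (-0.14 ± 0.08, SE) had overlapping libraries. The 12 spiny neuron markers were all negative in the same comparison, with a median log2 of -0.33 and none called.

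**Figure D4:**
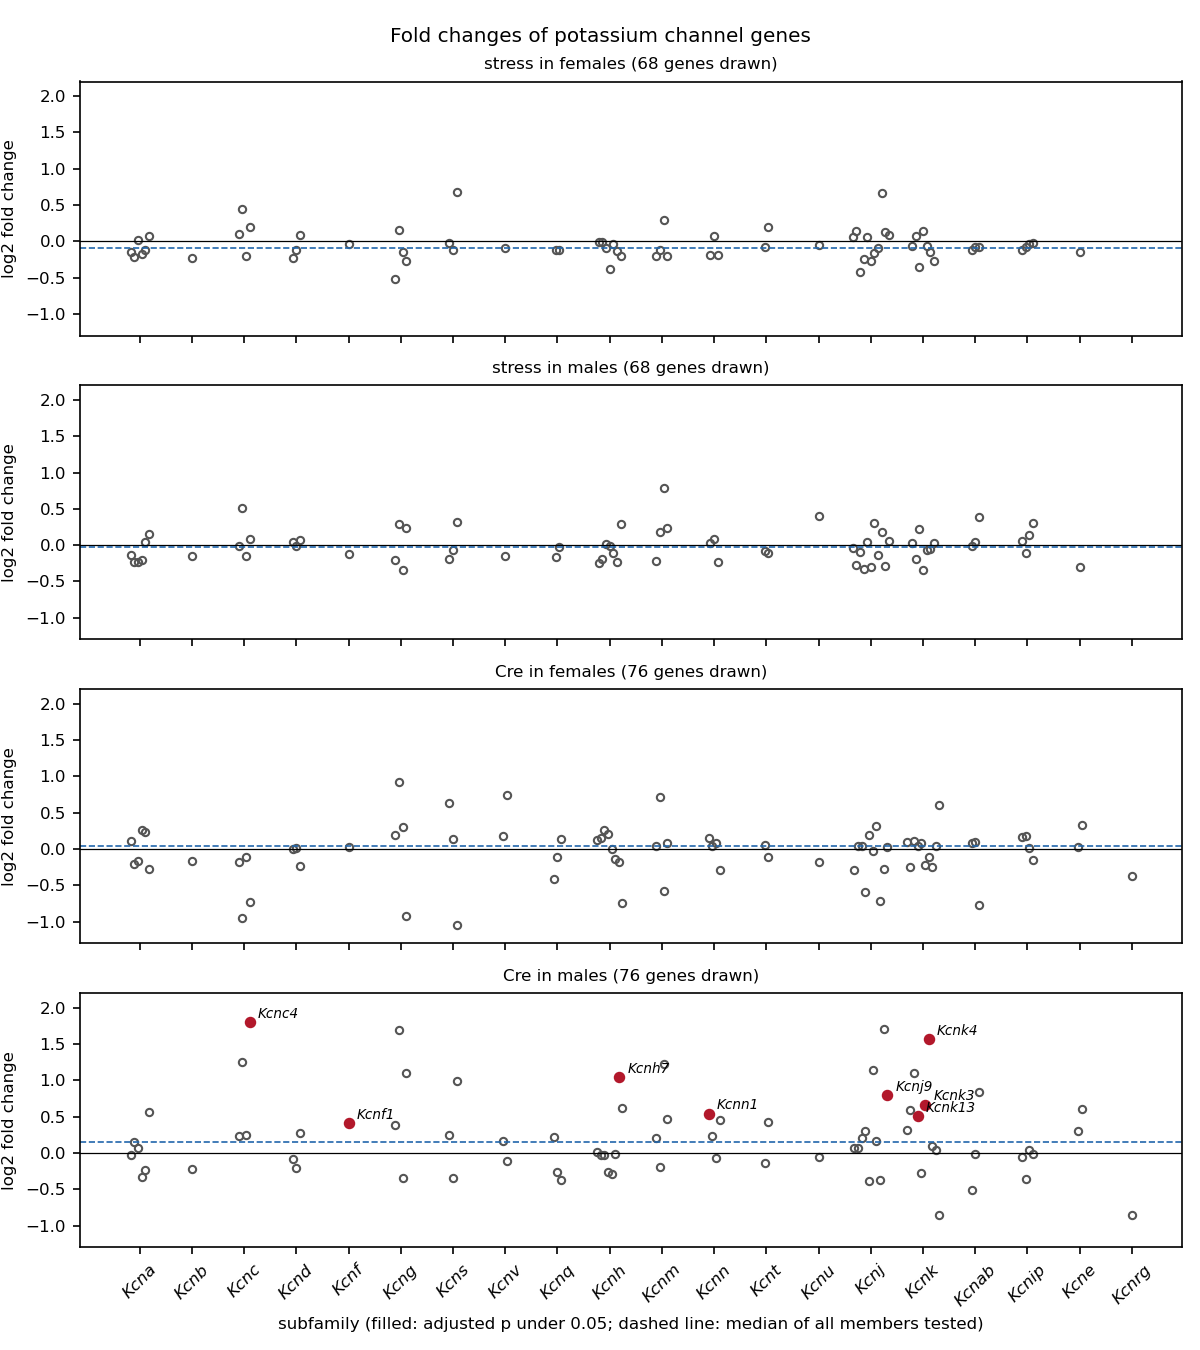
Log2 fold change of potassium channel genes, by subfamily, for stress in females, stress in males, Cre in females and Cre in males; filled red points passed an adjusted p of 0.05 and the dashed line is the median of all members tested. The 8 filled points are all in the lowest panel, above 0, and the medians are -0.09, -0.03, 0.04 and 0.15 from top to bottom.

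The number of calls in Cre males changed when single libraries were left out. A fit without a male library has fewer libraries in that group, and the part of this in the lost calls was not tested. Without the second Cre male library 3 of 79 genes were called, among them Kcnh7 and Kcnj9, with log2 fold changes of 0.83 and 0.62. Without Cre male library 1 there were 2, among them Kcnh7, and without library 3 there were 18. Of all genes 1.91%, 1.78% and 7.29% were called in these 3 fits. Leaving out GFP male library 1, 2 or 3 gave 2, 1 and 0 calls, where 1.38%, 0.52% and 0.925% of all genes were called. Kcnh7 kept its call in 9 of the 12 fits that leave out a library of either sex, with log2 fold changes of 0.83 to 1.24. It lost the call without GFP male library 1, 2 or 3. Kcnj9 and Kcnn1 kept their calls in 8 of the 12 fits. Kcnc4, Kcnf1, Kcnk4 and Kcnk13 kept theirs in 7, and Kcnk3 in 6. Cortical markers did not rise in 1 library alone: the glutamate transporter Slc17a7 stood at 428.1, 408.5 and 168 CPM in Cre males against 1.29, 2.76 and 15.3 CPM in GFP males. In Cre females it stood at 3.41, 1.5 and 36.0 CPM against 20.8, 5.20 and 2.15 CPM in GFP females.

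A fit with the mean log2 CPM of the cortical markers as a covariate was added after the data were seen. In it 0 of 79 members were called and 0% of all 17597 genes, and the standard errors grew. The score does not overlap between Cre and GFP males, so this fit cannot tell genes that follow the markers from genes that do not. Kcnh7 then had a log2 fold change of 0.11, Kcnc4 0.11, Kcnj9 0.15, Kcnk3 0.16 and Kcnk13 -0.05, while Kcnn1 had 0.73 ± 0.30, Kcnf1 0.33 ± 0.23 and Kcnk4 0.78 ± 0.98 (SE). In Cre males the virus, the cortical marker level and these channel genes move together and cannot be told apart.

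**Figure D5:**
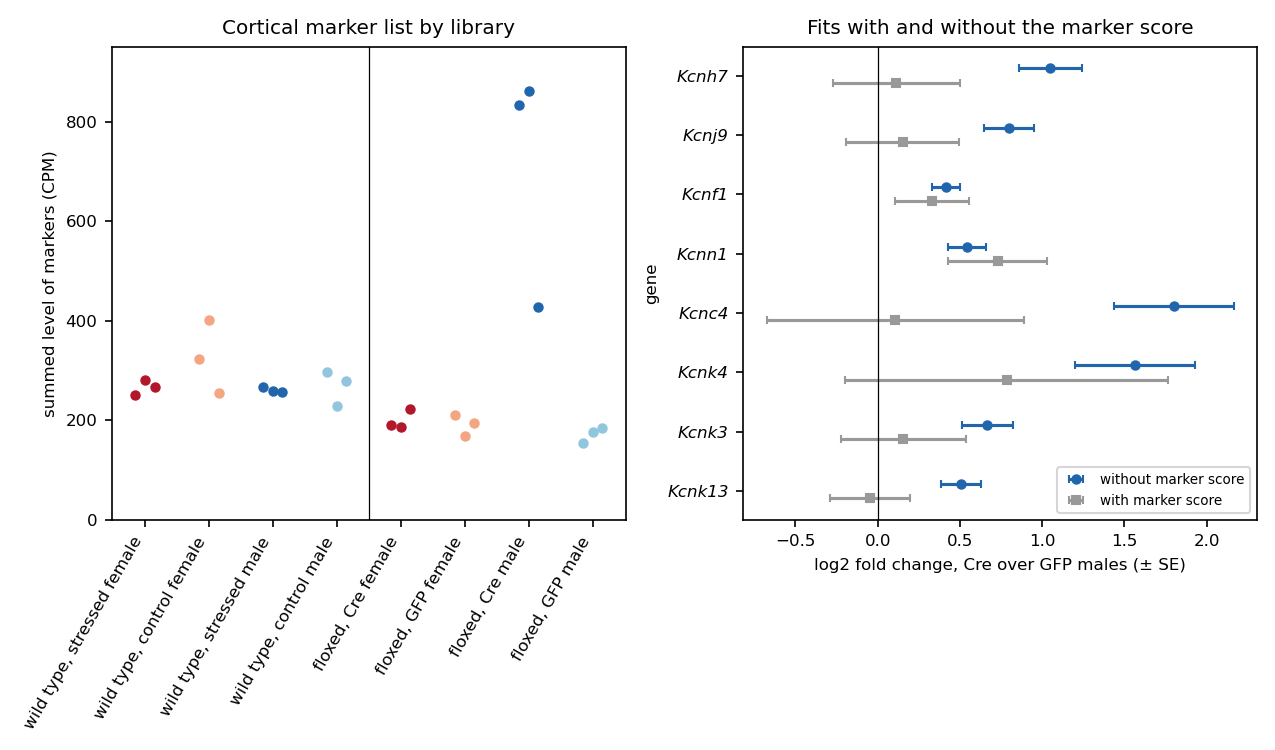
Left, summed level in CPM of the 15 cortical markers in each library of the 8 groups. Right, log2 fold change ± SE of 8 called genes, Cre over GFP males. The fits are without and with the marker score, the mean log2 CPM of these markers. The Cre male libraries stand at 427.1 to 861.5 CPM, above all 21 others. With the score Kcnf1, Kcnn1 and Kcnk4 have positive values with larger standard errors, and Kcnh7, Kcnc4, Kcnj9, Kcnk3 and Kcnk13 lie near 0. The score does not overlap between Cre and GFP males, so these values cannot sort the genes by their tie to the markers.

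Averaged over the sexes, 1 of 79 members was called higher in Cre than in GFP mice by edgeR. Of all genes 1.42% were called, 1.3% higher and 0.119% lower. An unadjusted p was below 0.05 for 17 members, where 14.2% of all genes had one. The averaged count was 0 in 9 of the 12 fits that leave out a library and in the fit by limma-voom. Kcnn1 (0.35 ± 0.08, adjusted p 0.0664), Kcng1 (0.29 ± 0.07, 0.0879), Kcnj9 (0.41 ± 0.11, 0.103) and Kcnf1 (0.22 ± 0.06, SE, 0.107) came next and did not pass.

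The difference between the Cre effects of females and males passed for 0 of 79 members in edgeR, where 0.0114% of all genes were called. The unadjusted p was below 0.05 for 30 members, where 17.5% of all genes had one. DESeq2 called 9, all with a lower effect in females, and 3.44% of all genes, and limma-voom called 0 members and 0% of all genes. Kcnc4 had the smallest p, at -2.53 ± 0.51 log2 (SE, female minus male effect) with an edgeR adjusted p of 0.0829. Kcnh7 (-1.23 ± 0.27), Kcnk3 (-0.89 ± 0.22), Kcnc2 (-2.2 ± 0.52) and Kcnmb2 (-1.79 ± 0.48, SE) followed. For Kcnc2 this joins a negative value in females with 35.5, 66.0 and 25.1 CPM in Cre males against 19.2, 19.7 and 14.6 CPM in GFP males, a log2 fold change of 1.25 ± 0.36 (SE) and an adjusted p of 0.0783. Without Cre male library 3, 13 members and 2.8% of all genes were called in this test.

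Genes that work with potassium channels were read from lists outside the Kcn names. Of all genes in Cre males, 3.68% were called higher, 1.28% lower, and 50.9% were positive. Of 25 channel partners tested, 2 fell in Cre males and 0 rose: Cntnap2, which holds Kcna channels beside the nodes of axons (log2 -0.28 ± 0.05, SE, adjusted p 0.0154), and Snx27, which sorts G-protein-gated rectifiers inside the cell (-0.22 ± 0.05, SE, adjusted p 0.036). The partner Dpp6, a subunit of Kcnd channels, had -0.17 ± 0.05 (SE, adjusted p 0.055). The partners' median log2 fold change was -0.16, and 8 of 25 were positive. Of 14 sodium channel genes 1 rose in Cre males. Of 4 Hcn genes, which carry the cation current that opens on hyperpolarization, all were positive in Cre males with a median log2 of 0.41 and 0 passed. Of 11 pumps and chloride cotransporters and 18 calcium channel genes 0 passed in Cre males. In Cre females and in stressed mice of either sex 0 genes of these 5 lists passed.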

How the data were processed

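The values deposited by the authors are unscaled read counts, whole numbers, for each Ensembl gene ID in each library. Per the submitters' processing notes, Bowtie2 2.1.0, TopHat2 2.0.9 and HTSeq 0.6.0 were used with builds NCBIM37 and mm9, and the strand setting is not given in the sources used here. Symbols, exon lengths and overlaps came from a later annotation (GENCODE M21, GRCm38), matched by Ensembl ID for 32919 IDs and not for 5072.

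Each experiment was fitted apart in R 4.3.3 with edgeR 4.0.16 (filterByExpr, TMM scaling, robust quasi-likelihood F test on 12 libraries in 4 group means), tested on simulated data first. Changed genes, 50 per setting, were drawn only from genes above a minimum mean count, so the shares that follow do not cover the lowest members. In the simulated stress comparison of females, 10% of genes set to a log2 change of 0.585 were called. Of genes set to 1 and -1, 64% and 54% were called. In the simulated Cre comparison of females these shares were 52%, 84% and 76%. A count of 0 calls therefore does not show that such changes were absent. Adjusted p-values are Benjamini-Hochberg over all genes tested, and a gene was called below 0.05. Expression is TMM-scaled CPM. Of the members, 9 were not tested in wild-type mice and Kcnj15 was not tested in floxed mice, for low counts. Alternatives used DESeq2 1.42.0, limma 3.58.1 (voom), RLE size factors, no filter, only the groups compared, each library left out, and a replicate block. Replicates differed far beyond sampling noise, by 6.87 to 57.3 times the chi-square expectation per degree of freedom, and the labels call them independent biological replicates, each a pool of 4 mice, so p-values measure the spread between these pools.

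Same-numbered stressed and control female libraries deviated together, with correlations of 0.592, 0.334 and 0.524, so the replicate block was taken to pair them. It left the count of called members there at 0, while 5 of 15249 genes were called with it and 0 without. Fold changes, standard errors and p-values given above for stress are from the fit without the block. Stressed and control males, and Cre and GFP mice, were not taken as paired by number (-0.452 to 0.341). In wild-type males the same-numbered correlations were 0.341, 0.247 and 0.086, and differently numbered libraries had -0.277 to 0.075. With the block 4 of all genes were called for stress in males, against 1 without. For stress averaged over the sexes 13 were called with it, against 2 without. Female and male wild-type libraries numbered 1 also deviated together, at 0.458 in stressed and 0.425 in control mice. Those numbered 2 and 3 had -0.151 to 0.271. The labels do not say what a number marks.

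The members and gene lists were chosen with earlier results of these data known. The text names the called members and the 5 of smallest p in each comparison, the 12 highest in level and each subfamily's extremes, a list of channels known in striatum, the X-linked members, and up to 4 genes of each list. Kcnn2, Kcnq3, Kcnip4 and Kcne1l among non-overlapping genes were named after their values were seen. Some genes that this rule would name are not reported here.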

Additional observations from a re-analysis of the deposited data

How the results depend on the processing

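Of the counts of called potassium channel genes over 10 comparisons and their alternatives, 154 stayed within 1.5 times the count reported and 30 did not, these 30 all in the floxed experiment. The count in Cre males, 9, was 21 by DESeq2 (18 higher, 3 lower, where it called 10.3% of all genes), 3 with the replicate block (1.09%), 0 with the cortical marker score added (0%), and 0 to 18 when a library was left out. RLE size factors and limma-voom gave 9, and no filter and only the 2 groups compared gave 8. The averaged count, 1, was 6 by DESeq2 (3.71%), 0 by limma-voom (1.09%), 2 without a filter (1.05%), 0 with the replicate block (0.193%), 0 with the marker score and 0 to 5 when a library was left out. The count for the difference between the sexes in the Cre effect, 0, was 9 by DESeq2 (3.44%) and 0 to 13 when a library was left out. The count by sex in floxed mice, 0, was 0 to 1 when a library was left out, the 1 being Kcnj9. Kcnk13 in Cre males changed sign with the marker score, to -0.046, the only gene called there that did. The causes were not tested. Same-numbered floxed libraries did not deviate together, so a call lost with the replicate block there is not read as a weaker effect. For stress in wild-type mice every alternative gave 0 members. Depth limits the lowest genes most: Kcnv2, Kcnk7 and Kcnq1 stood below 1 CPM in all 24 libraries.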

Other observations

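A few members stood at different levels in the 2 experiments. Kcnj15, an inward rectifier named for this after its values were seen, averaged 0.0086 CPM per kb in floxed mice and 0.193 in wild-type mice, and stood at 0 to 0.148 CPM in each floxed library against 0.432 to 1.81 CPM in each wild-type library. Kcnh4, a channel known for its striatal expression, averaged 10.8 CPM per kb in floxed and 6.17 in wild-type mice, Kcnt1 26.8 and 17.6, Kcns1 0.672 and 1.87, and Kcnmb4 0.746 and 1.54. Genotype, virus, depth and any batch differ together there, so no test was made and the sources cannot be told apart.

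In wild-type mice Kcnh3, chosen after its values were seen, stood at 147, 146, 148 and 158 CPM in library 1 of stressed females, control females, stressed males and control males, and at 73.7 to 131 CPM in libraries 2 and 3 of these groups.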
